A study of Mus musculus with 16 samples.

Results

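The genes described here are 37 genes of the lysosome: cathepsins and related proteases, glycosidases and sulfatases, enzymes and carriers of lipid breakdown, and membrane proteins. They were listed by symbol, with earlier results of these data known. Of the 37 genes, 36 had a probe set annotated to that symbol alone, out of 12394 genes measured in this way, and Arsb was not analysed here. Each gene was read from its probe set with the highest mean over the 16 arrays, as log2 expression in each mouse. Expression was compared between macrophages of 8 gliomas from mice given BLZ945, an inhibitor of the receptor for colony-stimulating factor 1 (CSF-1R), and macrophages of 8 gliomas from mice given Vehicle.

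All 16 mice were Nestin-Tv-a;Ink4a/Arf-/- animals of mixed background, so the deletion of Ink4a/Arf was shared by both groups and by the macrophages themselves. In this model the Nestin promoter places the avian virus receptor Tv-a on neural progenitor cells, and DF-1 cells injected into the frontal cortex release RCAS-PDGF-B-HA, a virus that carries a tagged platelet-derived growth factor into the cells with that receptor. BLZ945 was given by mouth once a day for 7 days at a dose that the labels state as 200 mg, and the Vehicle mice received the captisol solution alone. The BLZ945 group held 4 mice of 11.29 weeks and 4 of 13.14 weeks, 5 female and 3 male. The Vehicle group held 4 mice of 11.29 weeks, 2 of 11.43 weeks and 2 of 12.29 weeks, 4 female and 4 male. CD11b-positive, Gr1-negative cells were sorted from each tumour and hybridised to 1 array per mouse. That gate does not separate resident microglia from macrophages that entered from the blood.

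Lysosomes are acidic compartments in which proteins, glycans and lipids taken up by the cell are broken down. Soluble hydrolases are made in the endoplasmic reticulum and carried there by receptors, while heavily glycosylated membrane proteins line the compartment and a proton pump keeps it acidic. Macrophages and microglia are rich in these enzymes, with which they digest engulfed cells, debris and lipoproteins. Many lysosomal genes share short E-box-type promoter elements that are bound by the related transcription factors TFEB, TFE3 and MITF.

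The E-box CACGTG was therefore looked up in the promoters, because many lysosomal genes are known to carry elements of this type. The rule that chose the 37 genes did not use the motif. Since such elements are already known from lysosomal genes, a share above that of all genes is not an independent finding. RefSeq promoter windows on GRCm38.p6, from 250 bases before to 50 bases after each annotated start, were present for 33 of the 37 genes; Ctsb, Ctsh, Npc1 and Asah1 were not matched. CACGTG, which reads the same on both strands, occurred in 11 of these 33 genes, or 33.3%. It occurred in 7.15% of all windows, in 8.09% of all genes with a window and in 10.8% of genes with a window that the arrays measured. With a T before it on either strand (TCACGTG, searched on both strands and contained in the matches above) it was found in 9 of the 33 genes, or 27.3%, in 4.29% of all genes with a window and in 6.10% of those that the arrays measured. The stretches below are the 100 bases before the start in 6 of these promoters, read 5′ to 3′ on the strand of the gene, with each CACGTG in capitals. Ctsf, Glb1 and Ctsa are the genes with the motif that were higher in BLZ945 mice, Lgmn is the one that was lower, and Mcoln1 and Lamp1 hold more than 1 copy within this stretch.
Ctsf, chr19:4855065-4855164, plus strand: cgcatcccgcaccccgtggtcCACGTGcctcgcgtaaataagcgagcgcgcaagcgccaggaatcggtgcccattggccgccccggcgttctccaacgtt
Glb1, chr9:114400978-114401077, plus strand: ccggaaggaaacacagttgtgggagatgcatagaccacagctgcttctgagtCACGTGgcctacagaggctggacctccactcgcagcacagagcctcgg
Ctsa, chr2:164833673-164833772, plus strand: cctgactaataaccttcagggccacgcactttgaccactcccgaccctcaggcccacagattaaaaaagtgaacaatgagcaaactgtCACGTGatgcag
Lgmn, chr12:102439093-102439192, minus strand: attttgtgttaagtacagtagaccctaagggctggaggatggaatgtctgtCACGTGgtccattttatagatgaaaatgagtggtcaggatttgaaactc
Mcoln1, chr8:3500419-3500518, plus strand: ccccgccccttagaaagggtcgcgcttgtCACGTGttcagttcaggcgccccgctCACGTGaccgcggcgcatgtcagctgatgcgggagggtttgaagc
Lamp1, chr8:13159061-13159160, plus strand: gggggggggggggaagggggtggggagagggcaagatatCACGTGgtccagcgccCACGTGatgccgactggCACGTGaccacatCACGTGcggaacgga
Lamp1 held 4 copies and Mcoln1 held 2 copies, all within this stretch. In Ctsa the copy shown begins 12 bases before the start and another copy lies after it. Arsa, Cln3, Ctsd, Ctsl and Gla also held the motif. A match describes these letters in this window and was not tested as a binding site.

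**Figure D1:**
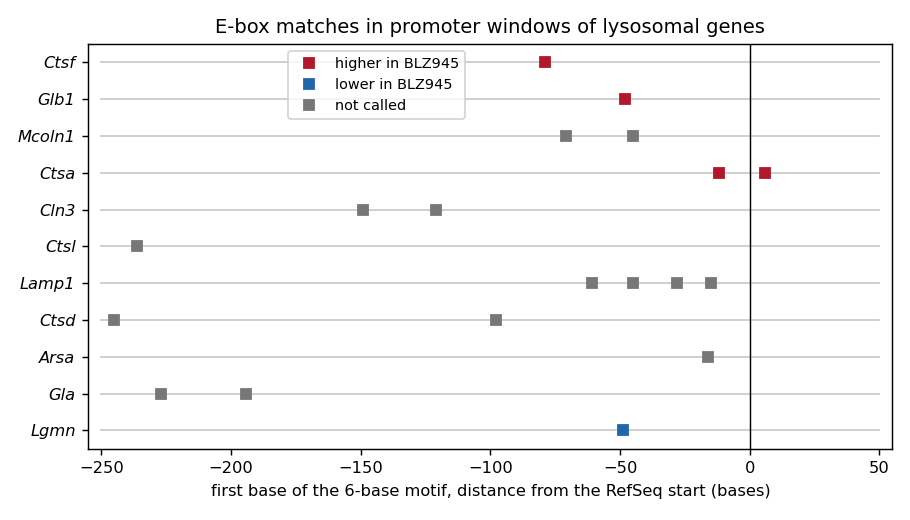
Position of each CACGTG match in the promoter windows of the 11 lysosomal genes that hold one; the horizontal axis is the distance in bases of the first base of the motif from the RefSeq start, with a vertical line at the start, and colours give the call in the expression comparison. Lamp1 has 4 matches close to its start, and the 3 genes that were higher in BLZ945 mice, Ctsf, Glb1 and Ctsa, each have a match within 100 bases of it.

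In macrophages of BLZ945-treated gliomas 8 of the 36 lysosomal genes were higher and 2 were lower than in Vehicle macrophages, by limma with Benjamini-Hochberg adjustment over all 12394 genes at a threshold of 0.05. Ctsf, Lipa, Glb1, Idua, Hexa, Ctsa, Scarb2 and Smpd1 rose. Lgmn and Ctsc fell, and 26 genes were not called. The 8 genes that rose are 22.2% of the 36, where 2.6% of all genes were higher (322 genes). The 2 that fell are 5.56%, near the 5.34% of all genes that were lower (662 genes). When quantile normalisation was repeated the split over all genes was 488 higher and 654 lower. Differences are given as BLZ945 minus Vehicle on the log2 scale, on which 1 unit is a 2-fold change.

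The difference was above 0 in 30 of the 36 genes, with a median of 0.19. Over all genes 61.1% lay above 0, with a median of 0.074. The lysosomal genes gave a strong signal, which reflects the probes as well as the amount of transcript: 35 of the 36 were at or above the median level of all genes and 31 were among the 3099 brightest. Of those 3099 genes, 44.8% lay above 0, 4.90% were called higher and 8.33% lower. A further 6 genes had an unadjusted p under the threshold without passing the adjustment, and all 6 were higher in BLZ945 mice: Lamp1, Mcoln1, Npc2, Cd68, Ctsd and Cln3. With the 10 called genes this makes 16 of the 36 under the unadjusted threshold, beside 2802 of all 12394 genes in either direction.

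The sorted cells carried their defining markers. The mean log2 level of 8 macrophage markers lay between 11.36 and 11.85 in Vehicle mice and between 10.87 and 11.71 in BLZ945 mice. Csf1r, which encodes the drug's target, averaged 13.61 and 13.66, and Cx3cr1 averaged 12.55 and 12.13. Itgam, which encodes the CD11b used in the gate, was the one macrophage marker called and fell by 1.17 (adjusted p = 0.0081). Transcripts of other cells moved with the agent as well. The mean of 8 glioma and oligodendrocyte precursor markers lay between 6.22 and 7.67 in Vehicle mice and between 5.16 and 6.81 in BLZ945 mice, and 4 of them fell: Pdgfra by 2.71, Fabp7 by 2.76, Olig1 by 1.95 and Olig2 by 1.23. Cspg4, with Olig1 the brightest of that list, was not called and differed by 0.44. Nes (0.12), Sox10 (-0.074) and Dcx (-0.044) were not called either. Aldoc and Gja1, 2 of 6 astrocyte markers, fell by 1.58 and 2.00, and the list mean lay between 5.91 and 6.82 in Vehicle mice and between 5.13 and 6.24 in BLZ945 mice; Slc1a3, its brightest, was not called. All 8 T and natural killer cell markers, led in brightness by Gzma and Nkg7, had differences above 0 and none was called, although 6 had an unadjusted p under the threshold, with list means of 3.94 to 4.97 against 4.36 to 6.16. The highest BLZ945 mouse was mouse 6 for all of these 8 markers but Cd3e. Its Gzma level was 10.47 where the next BLZ945 mouse had 8.24. None of the neutrophil markers (brightest S100a9 and S100a8), endothelial markers (Flt1 and Kdr), neuron markers (Stmn2 and Tubb3) or oligodendrocyte markers (Mbp and Cnp) was called; 3 endothelial markers and none of the other lists had an unadjusted p under the threshold. With the glioma marker mean as a covariate, 1 lysosomal gene was called higher (Lipa) and 1 lower (Ctsc). The 10 genes called without it all kept their direction. Out of all 12394 genes that fit called 101 higher and 128 lower, fewer than the fit without it. An unadjusted p under the threshold was found for 13 lysosomal genes, and the share of all genes is not given here. The glioma marker mean itself differed between the groups by -1.03, so the fit with it cannot fully separate these transcripts from the agent. In such bulk samples, fewer cells of a type and less RNA per cell cannot be told apart. The part of these transcripts in the lysosomal results was not tested.

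**Figure D2:**
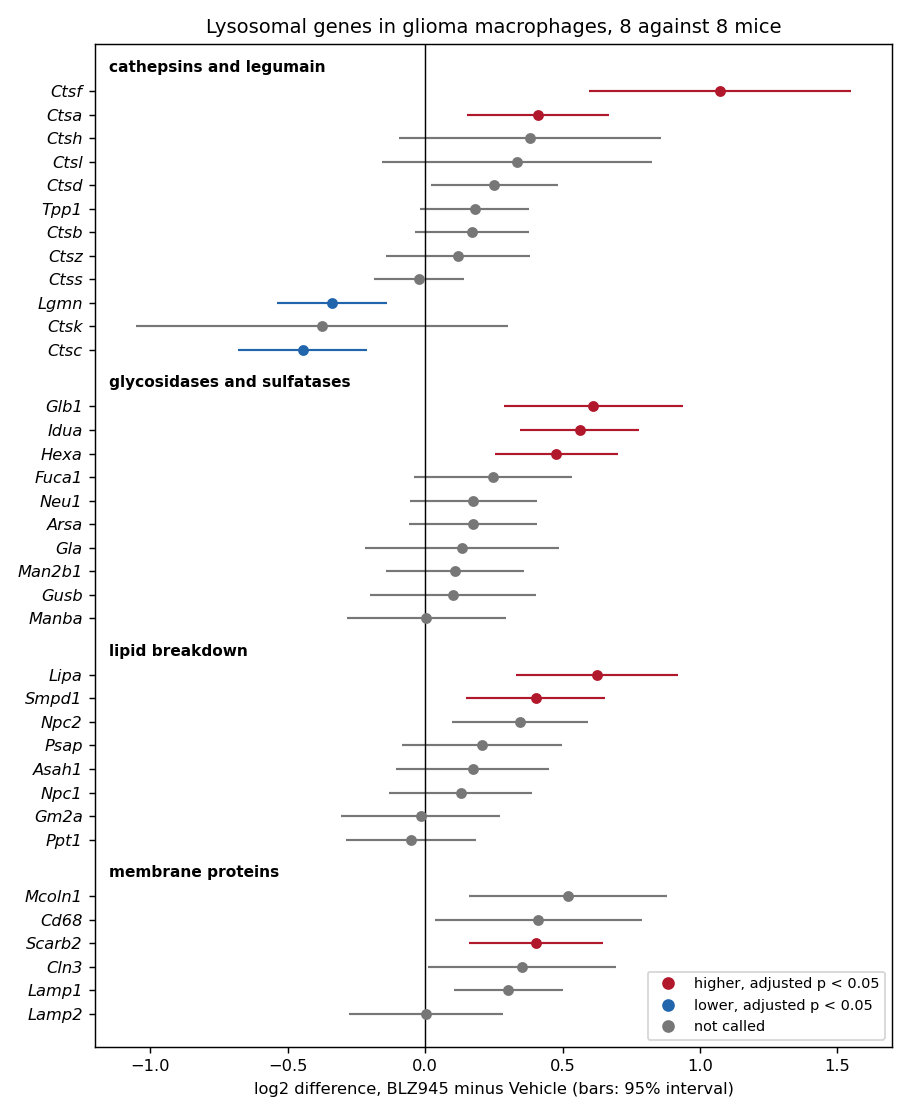
Difference in log2 expression, BLZ945 minus Vehicle (horizontal axis), for each of the 36 lysosomal genes grouped by role, as a point with its 95% interval from limma over 8 mice per group; red and blue points passed an adjusted p of 0.05. Ctsf has the largest difference at 1.07, and all 10 glycosidases and sulfatases and all 6 membrane proteins lie above 0.

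Among the 12 cathepsins and related proteases, 2 rose, 2 fell and 8 were not called. Ctsf, a cysteine protease of the papain family, had the largest difference of the 36 genes. Its log2 level ranged from 6.26 (median 7.37) to 8.08 in Vehicle mice and from 7.65 (median 8.44) to 9.004 in BLZ945 mice. In all, 7 of the 8 BLZ945 mice lay above every Vehicle mouse, and BLZ945 mouse 6 was the exception. The difference was 1.07 (SE 0.23, adjusted p = 0.0064), which is 2.10-fold. Ctsa, a serine carboxypeptidase that also holds beta-galactosidase and neuraminidase in a protective complex, ranged from 11.50 (median 12.11) to 12.39 in Vehicle mice and from 12.10 (median 12.49) to 12.64 in BLZ945 mice. The groups overlapped through 2 BLZ945 mice, and the lowest value of the 16 was that of Vehicle mouse 2. Its difference was 0.41 (SE 0.12, adjusted p = 0.047).

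Ctsc and Lgmn went the other way. Ctsc, a dipeptidyl peptidase that activates serine proteases of immune cell granules, varied little among Vehicle mice, from 12.70 (median 12.84) to 12.90. In BLZ945 mice it ranged from 12.06 (median 12.31) to 12.94. Of the BLZ945 mice, 7 lay below every Vehicle mouse, while BLZ945 mouse 6 lay above all 15 others. The difference was -0.45 (SE 0.11, adjusted p = 0.018), a 1.36-fold lower level. Lgmn, legumain, cuts after asparagine and matures several cathepsins. It ranged from 12.83 (median 13.06) to 13.23 in Vehicle mice and from 12.43 (median 12.71) to 12.88 in BLZ945 mice. Here 6 BLZ945 mice were below every Vehicle mouse and all 8 were below the Vehicle median, with a difference of -0.34 (SE 0.096, adjusted p = 0.034).

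The other 8 proteases did not pass the test. Ctsd, the main aspartic protease of lysosomes, ranged from 13.09 (median 13.36) to 13.56 in Vehicle mice and from 13.30 (median 13.63) to 13.91 in BLZ945 mice, and its difference of 0.25 had an adjusted p of 0.18. Ctsb, a cysteine protease with carboxydipeptidase activity, lay between 13.08 and 13.60 in Vehicle mice and between 13.41 and 13.72 in BLZ945 mice. Ctss, the protease that trims the MHC class II invariant chain, had ranges that nearly coincided, 13.74 to 13.95 and 13.72 to 13.91, with a difference of -0.022 (95% interval -0.18 to 0.14). The brightest probe sets of these arrays reached 13.87 to 14.34, so these 3 genes sat close to the upper end of the scale. Tpp1, a tripeptidyl peptidase, differed by 0.18, Ctsh, an aminopeptidase, by 0.38, and Ctsz, a carboxypeptidase, by 0.12. Ctsl, an endopeptidase, differed by 0.33 over all mice, with Vehicle mouse 2 at 10.67 and the next Vehicle mouse at 12.11. Ctsk, the collagen-degrading cathepsin of osteoclasts, was the one gene of the 36 with a signal below the median of all genes and the most variable, from 4.90 (median 5.86) to 7.23 in Vehicle mice and from 4.46 (median 5.34) to 6.41 in BLZ945 mice. Its interval of -1.05 to 0.30 covers 0.

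Glycosidases and sulfatases take sugars and sulfate groups off glycoproteins, glycolipids and matrix glycans. Of the 10 measured, 3 rose, none fell, and all 10 differences were above 0, beside 61.1% of those of all genes. Among mice of 11.29 weeks Gla (-0.25), Gusb (-0.11) and Manba (-0.050) lay below 0. Idua, which removes iduronic acid from heparan and dermatan sulfate, had the smallest p of the 36 genes. It ranged from 7.67 (median 7.82) to 8.27 in Vehicle mice and from 8.24 (median 8.40) to 8.64 in BLZ945 mice. The ranges touched only where BLZ945 mouse 6 fell below Vehicle mouse 3. The difference was 0.56 (SE 0.10, adjusted p = 0.0021), or 1.48-fold. Hexa, the alpha subunit of the beta-hexosaminidase that is missing in Tay-Sachs disease, ranged from 12.09 (median 12.25) to 12.65 against 12.61 (median 12.80) to 12.97. Here too 7 of the 8 BLZ945 mice lay above every Vehicle mouse. Hexa differed by 0.48 (SE 0.11, adjusted p = 0.0090).

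Glb1, the beta-galactosidase of lysosomes, ranged from 8.13 (median 8.94) to 9.29 in Vehicle mice and from 9.08 (median 9.56) to 9.85 in BLZ945 mice. All BLZ945 mice but mouse 1 lay above the highest Vehicle mouse. The difference was 0.61 (SE 0.16, adjusted p = 0.019), or 1.53-fold. Neu1, the sialidase that shares a complex with Glb1 and Ctsa, ranged from 7.09 (median 7.67) to 7.92 in Vehicle mice and from 7.65 (median 7.78) to 7.86 in BLZ945 mice. No BLZ945 mouse exceeded the highest Vehicle mouse, and the difference was 0.17 (adjusted p = 0.36). The remaining glycosidases and the sulfatase Arsa, which removes sulfate from sulfatide, were not called. Fuca1, a fucosidase, differed by 0.25, Arsa by 0.17, the alpha-galactosidase Gla by 0.13, the alpha-mannosidase Man2b1 by 0.11, the beta-glucuronidase Gusb by 0.10 and the beta-mannosidase Manba by 0.0046. Their intervals all covered 0, and the widest of them, that of Gla, ran from -0.22 to 0.49.

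Of the 8 genes of lipid breakdown, 2 rose and 6 were not called. Lipa, lysosomal acid lipase, frees cholesterol and fatty acids from lipoprotein lipids. It ranged from 9.43 (median 9.62) to 10.01 in Vehicle mice and from 9.73 (median 10.45) to 10.59 in BLZ945 mice. The BLZ945 mice were spread out: 6 were above every Vehicle mouse, while mice 1 and 6, at 9.87 and 9.73, fell within the Vehicle range. The difference was 0.63 (SE 0.14, adjusted p = 0.0092), or 1.54-fold. Smpd1, acid sphingomyelinase, ranged from 7.96 (median 8.43) to 8.69 in Vehicle mice and from 8.58 (median 8.79) to 9.17 in BLZ945 mice. All 8 BLZ945 mice were above the Vehicle median, and the difference was 0.40 (SE 0.12, adjusted p = 0.047).

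Npc1 and Npc2 hand cholesterol released by the lipase out of the lysosome. Npc2, the soluble carrier, ranged from 12.23 (median 12.73) to 13.02 in Vehicle mice and from 12.81 (median 13.04) to 13.33 in BLZ945 mice, and its difference of 0.35 missed the threshold (adjusted p = 0.081). Npc1, the membrane transporter, differed by 0.13 (95% interval -0.13 to 0.39). Psap, the precursor of the saposins that present lipids to the enzymes, differed by 0.21 and the ceramidase Asah1 by 0.17. Gm2a, the activator protein that works with Hexa on gangliosides, differed by -0.016 (95% interval -0.30 to 0.27), and Ppt1, a thioesterase that removes fatty acids from proteins, by -0.052 (95% interval -0.29 to 0.18). None of these 6 genes was called.

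All 6 membrane proteins had a difference above 0, beside 61.1% of all genes, and 1 was called. Scarb2, the receptor that brings glucocerebrosidase to the lysosome, ranged from 10.60 (median 11.002) to 11.41 in Vehicle mice and from 11.29 (median 11.44) to 11.57 in BLZ945 mice. Vehicle mice were spread wider than BLZ945 mice (SD 0.27 and 0.11, n = 8 each), and 5 BLZ945 mice exceeded every Vehicle mouse. Its difference was 0.40 (SE 0.12, adjusted p = 0.039). Lamp1, with Lamp2 the most abundant glycoprotein of the lysosomal membrane, ranged from 12.33 (median 12.62) to 12.78 in Vehicle mice and from 12.65 (median 12.93) to 13.04 in BLZ945 mice. The BLZ945 mice lay above all Vehicle mice in 7 of 8 cases, but the difference of 0.30 (SE 0.094) had an adjusted p of 0.055. Lamp2 ranged from 11.29 to 11.99 and from 11.28 to 12.14, with a difference of 0.0036 (95% interval -0.28 to 0.28).

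Mcoln1, the channel that releases calcium from lysosomes, ranged from 6.89 (median 7.42) to 7.89 in Vehicle mice and from 7.03 (median 7.99) to 8.26 in BLZ945 mice, with a difference of 0.52 (SE 0.17, adjusted p = 0.071). BLZ945 mouse 4 stood apart at 7.03, and without it Mcoln1 passed the threshold at an adjusted p of 0.0099, as it also did without Vehicle mouse 7. Cd68, macrosialin, a membrane glycoprotein used as a macrophage marker, ranged from 11.08 (median 11.58) to 11.96 and from 11.15 (median 11.99) to 12.48. Its difference of 0.41 (SE 0.18, adjusted p = 0.18) passed without BLZ945 mouse 6 (adjusted p = 0.044). Cln3, a membrane protein mutated in juvenile neuronal ceroid lipofuscinosis, differed by 0.35 (SE 0.16, adjusted p = 0.21). Ctsf, Glb1, Hexa, Idua and Lamp1, 5 of the 36 genes, had at least 7 BLZ945 mice above every Vehicle mouse, which held for 1.11% of all genes. For none of the 36 genes were the ranges of the groups fully apart, and the share of all genes with such ranges is not given here.

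**Figure D3:**
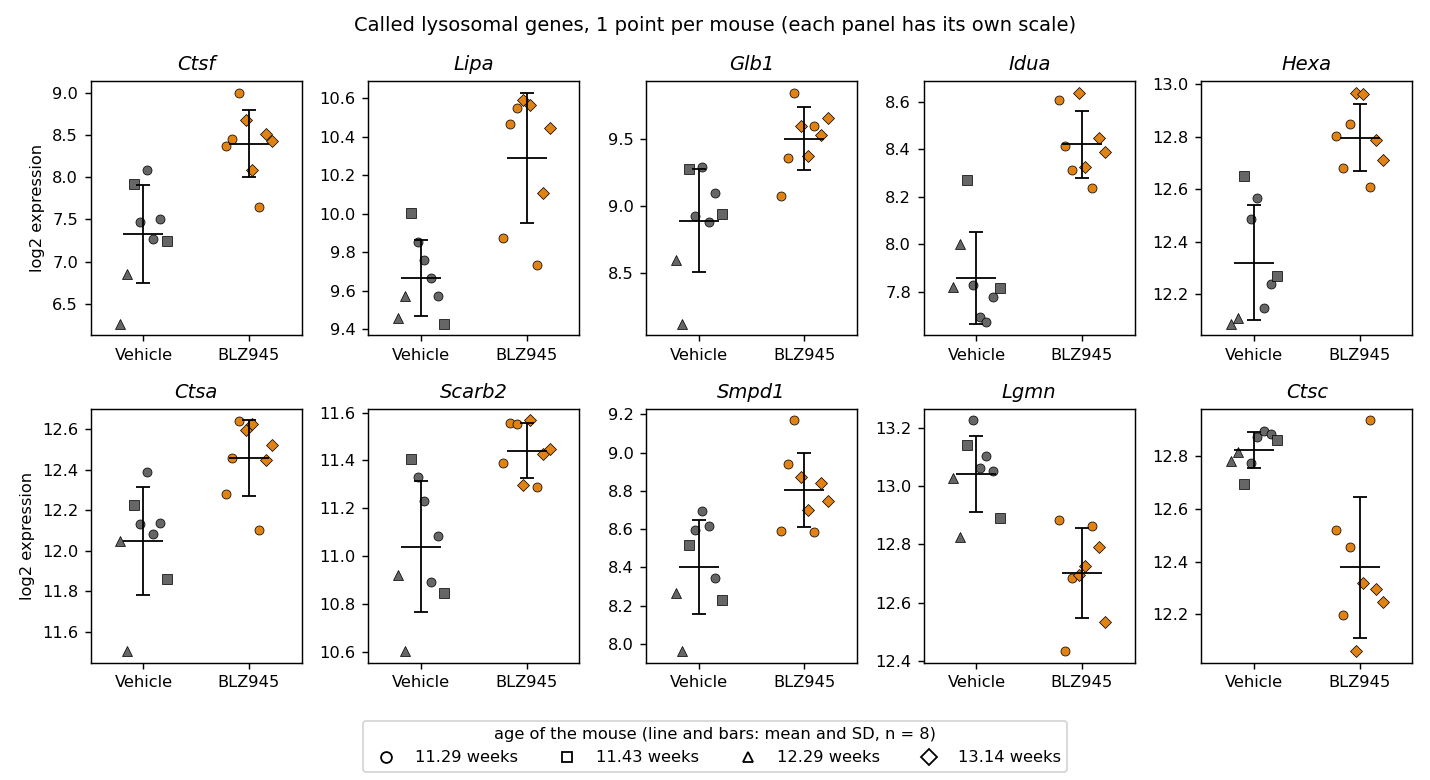
Log2 expression (vertical axis, own scale in each panel) of the 10 called lysosomal genes, 1 point per mouse, with the mean and SD of 8 mice; marker shapes give the age of the mouse. BLZ945 mouse 6, a circle of 11.29 weeks, is the point at 12.94 that lies above all Vehicle mice for Ctsc and the lowest BLZ945 point for Ctsf, Idua, Hexa, Lipa, Ctsa, Scarb2 and Smpd1.

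The same few mice held the extremes of many genes. BLZ945 mouse 6 was the lowest BLZ945 mouse for 7 of the 8 genes that rose and for 14 of the 36 genes. Vehicle mouse 2 was the lowest of all 16 mice for 11 of the 36 genes, Vehicle mouse 8 for 9 and Vehicle mouse 1 for 5. At the other end, BLZ945 mouse 3 was the highest BLZ945 mouse for 12 genes and mouse 4 for 10. The mean of the 36 log2 levels ranged from 10.41 to 10.81 in Vehicle mice and from 10.75 to 11.03 in BLZ945 mice. These summaries describe the mice and carry no test.

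**Figure D4:**
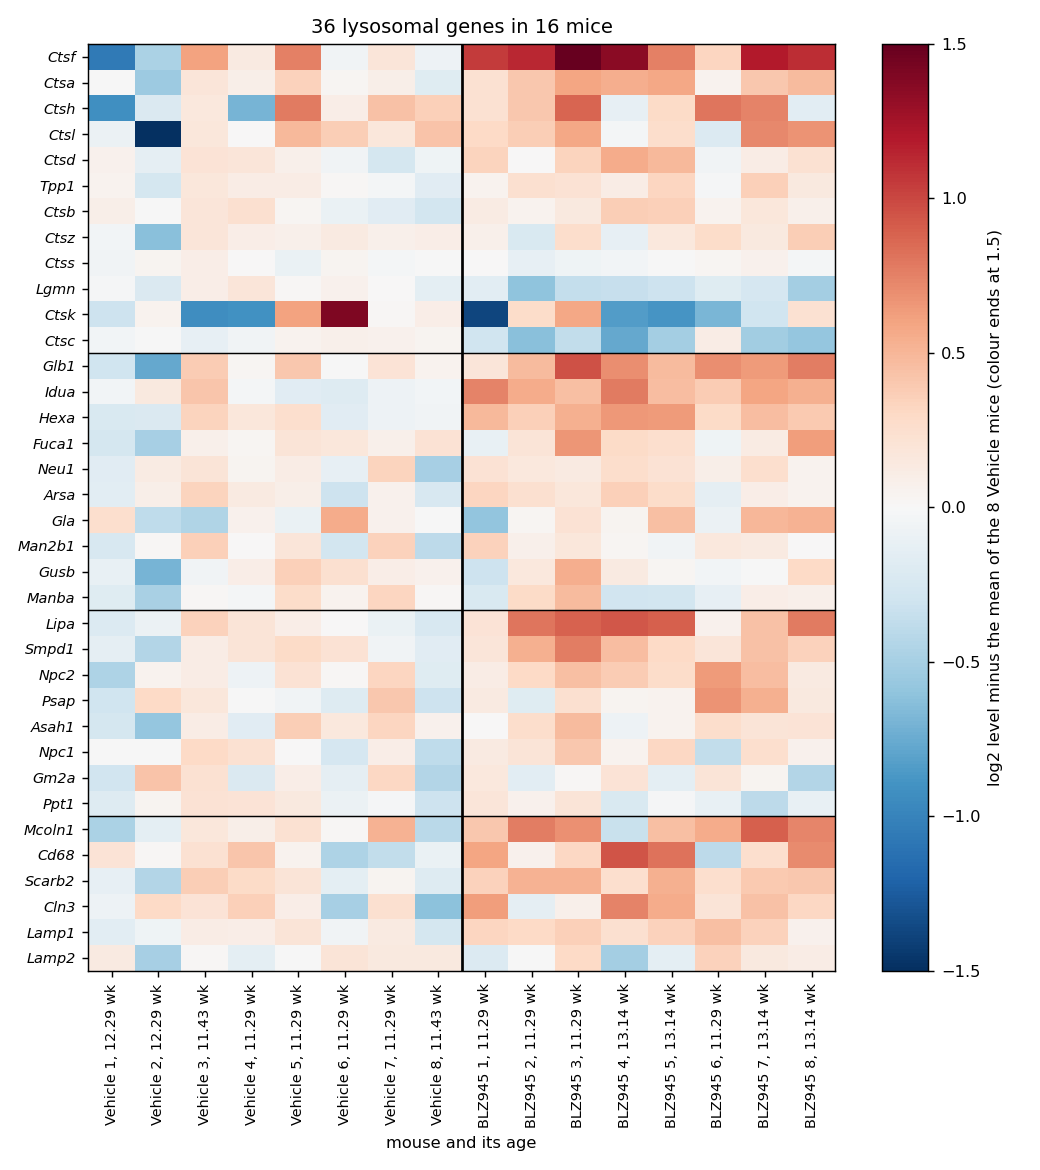
Log2 level of each lysosomal gene (rows, grouped by role) in each mouse (columns, with age in weeks), as the difference from the mean of the 8 Vehicle mice; red is higher, blue is lower, and the colour scale ends at 1.5 units either way. The 12.29-week Vehicle mice 1 and 2 are blue over many rows, Ctsf, Glb1, Idua and Hexa are red in all 8 BLZ945 columns, and Ctsc is blue in 7 of the 8.

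Of the 10 calls, 6 held whichever single mouse was left out, those of Ctsf, Lipa, Glb1, Idua, Hexa and Ctsc. The other 4 did not. Ctsa was called only without Vehicle mouse 3 or 5 or BLZ945 mouse 1 or 6, with adjusted p from 0.023 to 0.089 over the 16 mice. Smpd1 was called only without Vehicle mouse 5 or BLZ945 mouse 1 or 6, with adjusted p from 0.035 to 0.088. Scarb2 was called only without Vehicle mouse 3, 4 or 5 or BLZ945 mouse 4 or 6, with adjusted p from 0.020 to 0.079. Lgmn was called only without Vehicle mouse 2 or 8 or BLZ945 mouse 1, 4, 6 or 7, with adjusted p from 0.022 to 0.072. Lamp1 gained a call without Vehicle mouse 5 or BLZ945 mouse 8, down to an adjusted p of 0.041. The count of higher genes was 5 without Vehicle mouse 1, 2, 6 or 8 or without BLZ945 mouse 2, 3, 5 or 7. The count of lower genes was 1, Ctsc alone, in each of the 10 fits in which Lgmn was not called.

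Ages differed between the groups, and both agents were given only at 11.29 weeks. Among those mice, 4 in each group, no lysosomal gene passed the threshold in limma, while 11 genes of all measured were called higher and 78 lower. At an unadjusted p under the threshold there were 6 lysosomal genes, and the share of all genes is not given here. The 10 called genes all kept their direction there, and 8 of the 10 differences were smaller than over all mice. Ctsf differed by 0.79 at this age, Idua by 0.65, Lipa by 0.44, Glb1 by 0.42, Hexa by 0.38, Scarb2 by 0.31, Smpd1 by 0.26 and Ctsa by 0.18. Lgmn differed by -0.40 and Ctsc by -0.33, and adjusted p over the 10 genes ran from 0.063 for Idua to 0.58 for Ctsa. Over the 36 genes the median difference was 0.11 at this age, beside 0.060 over all genes, and 30 of the 36 differences were smaller than over all mice or of the other sign. The mean of the 36 genes was 10.43 in the 2 Vehicle mice of 12.29 weeks, 10.64 in the 2 of 11.43 weeks and 10.71 in the 4 of 11.29 weeks (SD 0.076). In BLZ945 mice it was 10.84 at 11.29 weeks (SD 0.13) and 10.86 at 13.14 weeks (SD 0.039, n = 4 each). The part of the ages in the results over all mice was not tested beyond these values. A fit with age as a covariate takes its differences between the agents from the mice of 11.29 weeks alone, as no other age held both agents. In that fit 1 lysosomal gene, Idua, was called, and of all genes 38 were higher and 177 lower.

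**Figure D5:**
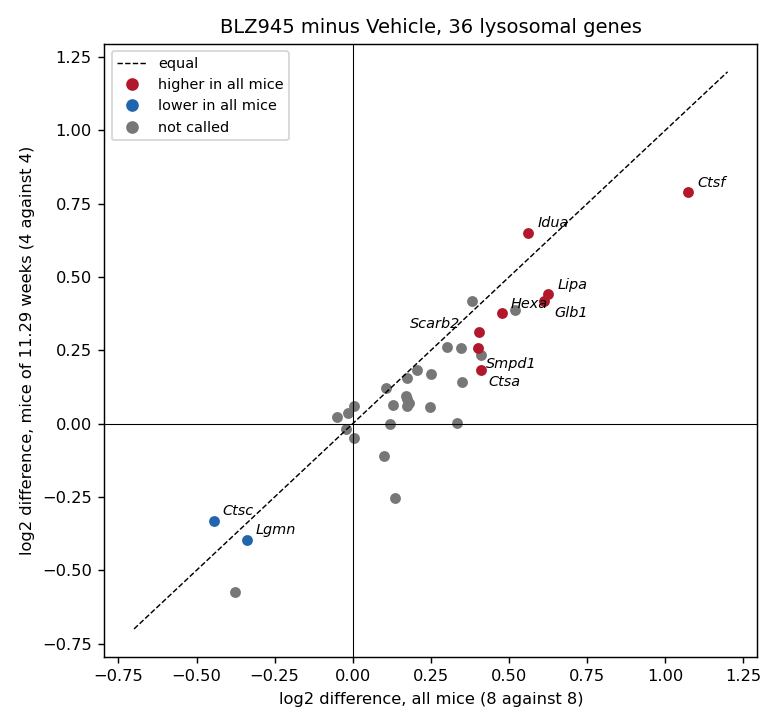
Difference in log2 expression, BLZ945 minus Vehicle, for the 36 lysosomal genes over all mice (horizontal axis, 8 against 8) and among mice of 11.29 weeks (vertical axis, 4 against 4, a subset of the same mice); the dashed line marks equal differences. All 10 called genes keep their sign; Idua and Lgmn lie further from 0 on the vertical axis, and the other 8 lie closer to it.

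Within the BLZ945 group, mice of 13.14 weeks were compared with mice of 11.29 weeks by limma. No lysosomal gene was called, beside 0.0403% of all genes (5 genes), and the lowest adjusted p of the 36 was 0.24. At an unadjusted p under the threshold there were 2 of the 36 and 2312 of all 12394 genes. Gla, with a difference of 0.49 (older minus younger), and Cd68, with 0.54, had the largest differences in size among the 36.

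The effect of the agent was also compared between the sexes, with an interaction term over all 16 mice. No gene of the 36 and 0% of all 12394 genes were called, and the lowest adjusted p among the 36 was 0.98. At an unadjusted p under the threshold there were 414 genes in all and 2 of the 36. All 10 called genes kept their direction in each sex. Ctsf differed by 1.34 in females and 0.73 in males, and Idua by 0.56 and 0.54. Cd68 differed by 0.70 in females and by -0.057 in males, and Cln3 by 0.71 and -0.085, and neither interaction passed the threshold.

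Tumour size differed between the groups too. The labels give an initial tumour volume, without its unit in that field, for all 8 BLZ945 mice and 6 Vehicle mice. It ranged from 41.3 to 132.3 in BLZ945 mice and from 11.9 to 27.3 in Vehicle mice, without overlap. If these volumes are in the unit of the protocol, cubic millimetres, all 8 BLZ945 values lie above the range in which mice were assigned to a group, and the labels do not say when they were measured. With the log2 volume as a covariate in the 14 mice that have one, no lysosomal gene was called by limma. That fit called few genes of any kind, 4 higher and 11 lower out of 12394. At an unadjusted p under the threshold there were 5 lysosomal genes, and the share of all genes is not given here. Vehicle mice 1 and 2, both of 12.29 weeks, have no volume and were left out of that fit. Their means of the 36 lysosomal genes, 10.46 and 10.41, were the lowest of the 16 mice. Since the volumes of the groups did not overlap, volume and agent cannot be told apart in the 14 mice that have a volume.

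Where the arrays carry several probe sets for a gene, as they do for 17 of the 36, the others were compared with the brightest. In 10 of the 17 genes the brightest probe set had the lowest difference. Ctsb differed by 0.17 on its brightest probe set and by 0.31 to 0.47 on the other 3. For Man2b1 the values were 0.11 and 0.55. Ppt1 was the one gene whose probe sets disagreed in sign, -0.052 on the brightest and 0.33 on the other, and neither was called among all 20393 single-gene probe sets. The 3 probe sets of Lipa gave 0.63, 0.95 and 0.66. Both of Idua were called, at 0.56 and 0.41. The second probe set of Mcoln1 was called (0.47, adjusted p = 0.013) where the brightest was not, and the second of Scarb2 (0.28) was not called where the brightest was. With p adjusted over all these probe sets, the only ones of Ctsa and Smpd1 missed the threshold (adjusted p = 0.052 for each), as did the third of Lipa (adjusted p = 0.055).

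Of 118 other lysosome genes measured, out of 148 listed, 12 were higher and 3 lower, or 10.2% and 2.54%, beside 2.6% and 5.34% of all genes, with a median difference of 0.094. The count of higher genes was 7 without BLZ945 mouse 7, and that of lower genes was 5 without Vehicle mouse 2 and 6 without BLZ945 mouse 6. Among mice of 11.29 weeks none was higher and 1, Hgsnat, was lower. Among 32 other acid hydrolases and lysosomal enzymes 5 rose and 3 fell. Hgsnat, the acetyltransferase needed to degrade heparan sulfate, fell by 1.04 (adjusted p = 0.00075), with all 8 BLZ945 mice (7.16 to 7.83) below all Vehicle mice (7.87 to 9.13). This is the opposite direction to Idua, which acts on the same glycan. Smpdl3b, a relative of Smpd1 at the cell surface, fell by 0.82 (adjusted p = 0.013). Pld3, a lysosomal nuclease of the phospholipase D family, was higher by 0.95 (adjusted p = 0.016) and Creg1, a lysosomal glycoprotein, by 0.52 (adjusted p = 0.016).

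Of 23 other membrane proteins and transporters 2 rose and none fell. Slc11a1, the metal transporter of the phagosome membrane, was 0.69 higher (adjusted p = 0.0038), with all 8 BLZ945 mice (10.64 to 11.22) above all Vehicle mice (9.67 to 10.63). Litaf, a protein of the late endosome membrane, was 0.58 higher (adjusted p = 0.0073). Of 16 subunits of the proton pump that acidifies the lysosome, Atp6v1b2 alone was called, at 0.54 (adjusted p = 0.011). Of 23 genes that deliver enzymes to lysosomes, Igf2r, a receptor for mannose-phosphate tags, was 0.79 higher (adjusted p = 0.024) and Lyst, the regulator of lysosome size lost in Chediak-Higashi syndrome, 0.84 higher (adjusted p = 0.046), and none was lower. Igf2r lost its call without BLZ945 mouse 7 (adjusted p = 0.053). Lyst was called in 5 of the 16 fits that left out a mouse, with adjusted p from 0.0098 to 0.093, while the calls of Slc11a1, Litaf and Atp6v1b2 held in all 16.

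Among 7 inhibitors of cathepsins Cst7, cystatin F, which inhibits cysteine cathepsins including the one encoded by Ctsc, was the one called. It ranged from 10.22 (median 10.63) to 11.09 in Vehicle mice and from 11.58 (median 11.96) to 12.86 in BLZ945 mice. The groups did not overlap, and the difference of 1.39 (SE 0.18, adjusted p = 0.00012) was 2.62-fold and larger than that of any of the 36 lysosomal genes. Among 17 genes that control lysosomal genes Mitf alone was called. Its level ranged from 8.17 (median 8.58) to 9.25 in Vehicle mice and from 8.91 (median 9.88) to 10.29 in BLZ945 mice, and it was 1.07 higher (SE 0.20, adjusted p = 0.0026).

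The promoter motif was set beside these values. Of the 8 genes that rose, Ctsa, Ctsf and Glb1 held CACGTG in their window and Hexa, Idua, Lipa, Scarb2 and Smpd1 did not. Of the 2 that fell, Lgmn held it and Ctsc did not. Among the genes not called that had a window, 7 of 22 held it. The median difference was 0.33 over the 11 genes with the motif, from -0.34 for Lgmn to 1.07 for Ctsf, and 0.17 over the 21 measured genes with a window and no match. These medians are a description and were given no test.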

How the data were processed

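RNA of sorted glioma macrophages from 16 mice was labelled and hybridised to Affymetrix arrays, 1 per mouse, and GCOS 1.4 and RMA are the tools listed per the submitters' processing notes. The deposited values were taken as the authors' log2 expression per probe set, without further normalization. The build behind the array annotation is not given in the sources used here, and promoter sequences come from RefSeq's GRCm38.p6 table. As a method, RMA works on background-corrected, quantile-normalized probes and tends to shrink differences of dim probes.

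Of 22690 probe sets, 20393 carried 1 symbol, 691 several and 1606 none in the platform annotation. The first gave 12394 genes, each read from its brightest probe set. Ranks by brightness describe signal and not the amount of transcript. The agents were compared by limma (version 3.58.1, R version 4.3.3), fitting agent alone to all 16 arrays with moderated variances, with Benjamini-Hochberg adjustment over all genes and a threshold of 0.05. The fit was tested on simulated data. An interaction of agent and sex, and the age within BLZ945 mice, were fitted in the same way. All p-values are for either direction. The lysosomal genes, the other gene lists and the marker lists were chosen with earlier results of these data known. All 36 measured lysosomal genes are named, in each other list up to 4 called genes with the smallest p, and of each marker list the 2 brightest genes and up to 4 called ones.

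Each array is a separate mouse, and precision is limited by how many arrays there are: standard errors of the 36 genes ran from 0.08 to 0.32 log2 units. No pairing of the mice by replicate number is stated. The deviations of mice with the same number correlated between -0.48 and 0.39, which alone cannot show that no pairing existed. Alternatives covered the probe sets, dim genes, normalization, eBayes settings, array weights, covariates, subsets of mice, a replicate block and leaving out each mouse.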

Additional observations from a re-analysis of the deposited data

Results flagged for a closer look

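In 5 of 72 sets of 8 values, 1 mouse lay far from the other 7 by Dixon's test at its 95% critical value; chance flags about 1 in 20 such sets. Vehicle mouse 2 was the low mouse in 3 of them. Its Ctsl level was 10.67 where the next Vehicle mouse had 12.11. Its Ctsz level was 12.35 where the next had 12.94, and its Gusb level was 11.04 where the next had 11.63. BLZ945 mouse 6 had an Npc1 level of 8.997, and the next BLZ945 mouse had 9.42. BLZ945 mouse 4 had a Mcoln1 level of 7.03, and the next had 7.77. Ctsl, Ctsz, Gusb and Npc1 were not called with or without any single mouse, and Mcoln1 was called without BLZ945 mouse 4 or without Vehicle mouse 7.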

How the results depend on the processing

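The 10 called genes kept their direction under every alternative that measured them, while most calls depended on the mice and covariates used. The count of higher lysosomal genes, 8 as reported, was 5 with only the probe sets whose names lack _s_, _x_ and _a_ (28 of the genes measured), 1 with age as a covariate, 0 with the log2 tumour volume, 1 with the glioma marker mean, 0 in mice of 11.29 weeks, 1 in females and 0 in males. The count of lower genes, 2 as reported, was 0 with age, 0 with volume, 1 with the glioma marker mean, 0 at 11.29 weeks, 0 in females and 0 in males. Calls over all 12394 genes became few in these fits too. They were 38 higher and 177 lower with age, 4 and 11 with volume, and 101 and 128 with the glioma marker mean. In mice of 11.29 weeks they were 11 and 78, in females 121 and 272, and in males 0 and 2. Leaving out 1 mouse gave 5 to 9 higher and 1 to 2 lower genes. With the replicate block 5 genes were higher and 1 lower. No pairing by these numbers is stated, and 1 mouse of 8 correlated best with its own number. Subsets hold fewer mice. With age as a covariate the differences between the agents are those of the mice of 11.29 weeks. That fit and the one in those mice are therefore not separate checks. For the other covariates the cause was not tested. Under repeated quantile normalization and median centring all 10 calls were kept. Sex as a covariate lost 2 of the 10. Array weights, the trend and robust eBayes settings, and the mean of all probe sets lost 1 each. With genes gained as well, these 4 fits called 11, 10, 10 and 12 of the 36 genes, in that order.

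Of the other lysosome genes, 12 were higher as reported, against 2 with age, 0 with volume, 19 with the array SD, 2 with the glioma marker mean, 0 at 11.29 weeks, 3 in females, 0 in males and 7 to 13 without 1 mouse (7 without BLZ945 mouse 7). The lower ones, 3 as reported, numbered 0 with volume, 5 with the array SD, 1 at 11.29 weeks, 1 in females, 0 in males and 2 to 6 without 1 mouse (5 without Vehicle mouse 2, 6 without BLZ945 mouse 6). With the array SD, 866 of all genes were higher and 778 lower. The interaction with sex and the age comparison gave 0 lysosomal genes in all their alternatives.

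The fit with volume as a covariate also left out Vehicle mice 1 and 2. Differences of uncalled genes changed sign as follows, and the cause was not tested. With volume as a covariate they were -0.31 for Ctsh, -0.58 for Ctsl, 0.063 for Ctss, -0.090 for Ctsz, -0.43 for Lamp2, -0.71 for Gla, -0.50 for Gusb, -0.41 for Asah1, 0.21 for Gm2a, -0.66 for Manba, -0.26 for Fuca1, -0.033 for Tpp1, 0.040 for Ppt1 and -0.45 for Mcoln1. With the glioma marker mean they were -0.070 for Ctsh, 0.13 for Ctsk, -0.12 for Lamp2, -0.20 for Psap, -0.10 for Man2b1 and -0.035 for Manba. With age as a covariate the differences are those of mice of 11.29 weeks alone. Both fits gave -0.00033 for Ctsz, -0.25 for Gla, -0.11 for Gusb, 0.037 for Gm2a, -0.050 for Manba and 0.022 for Ppt1. In males they were 0.010 for Ctss, -0.057 for Cd68, -0.057 for Npc1, -0.027 for Arsa, -0.016 for Man2b1 and -0.085 for Cln3. In females they were -0.21 for Lamp2, 0.12 for Gm2a, -0.025 for Manba and 0.10 for Ppt1. Repeated quantile normalization gave 0.037 for Gm2a and 0.0078 for Ppt1, sex as a covariate 0.0082 for Gm2a, and the mean of all probe sets 0.14 for Ppt1. Without 1 mouse, Gm2a ran from -0.079 to 0.046, Lamp2 from -0.068 to 0.077 and Manba from -0.065 to 0.051.

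Signal sets the limits: Ctsk gave a weak signal, Ctss, Ctsd and Ctsb lay near the top of the scale, and the smallest called difference was -0.34, that of Lgmn.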
